A study of Mus musculus with 9 samples.

Results

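Mitochondrial ribosomal proteins were followed in RAW 264.7 cells, a mouse macrophage line, as 127 probe sets of 22626 tested on an expression array. The probe sets were those whose platform annotation gives a single gene symbol that starts with Mrpl or Mrps followed by a digit, and they covered 74 genes of 12393. The rule reads the symbol and no measured value, though these genes were chosen for description with earlier results of the same data known. Left out were 3 probe sets that the annotation assigns to several genes. The 9 arrays, each hybridised with total RNA, formed 3 groups of 3. LPS arrays came from cells given bacterial lipopolysaccharide at 100 ng/ml for 18 h, and the CstF-64 arrays are labelled as constitutive overexpression of CstF-64, an RNA 3′-end processing factor encoded by Cstf2. Untreated cells of the same line were the control for both. The sources used here do not give the construct, whether the CstF-64 cells were 1 clone, or whether replicates were separate cultures. The p-values therefore rest on the spread between these samples alone, and that spread may be technical. No array carries a control construct, and an effect of CstF-64 cannot be told apart from other differences between the cell populations.

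Mammalian mitochondrial ribosomes translate the few proteins encoded in mitochondrial DNA, all of them subunits of the respiratory chain and ATP synthase. Their ribosomal RNAs come from mitochondrial DNA, whereas every ribosomal protein is encoded in the nucleus, made in the cytosol and imported. Some of these proteins descend from bacterial ribosomal proteins, and others are found only in mitochondria. In macrophages, LPS is known to shift energy metabolism from respiration towards glycolysis.

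The promoter sequences of the 4 genes that rose after LPS and of the 2 with the smallest adjusted p among those that fell are shown first, because the results below turn on these genes. Each is the 250 bases before the annotated start, 5′ to 3′ on the gene's strand, from RefSeq on GRCm38.p6, and the capitals mark matches to the motifs named in the next paragraph.
Mrpl52, chr14:54426659-54426908, plus strand: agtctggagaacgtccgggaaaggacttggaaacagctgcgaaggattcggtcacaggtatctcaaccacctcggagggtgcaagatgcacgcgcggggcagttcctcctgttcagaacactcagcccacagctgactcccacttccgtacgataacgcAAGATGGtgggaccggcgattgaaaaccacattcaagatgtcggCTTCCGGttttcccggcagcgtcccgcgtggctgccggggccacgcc
Mrpl27, chr11:94653541-94653790, plus strand: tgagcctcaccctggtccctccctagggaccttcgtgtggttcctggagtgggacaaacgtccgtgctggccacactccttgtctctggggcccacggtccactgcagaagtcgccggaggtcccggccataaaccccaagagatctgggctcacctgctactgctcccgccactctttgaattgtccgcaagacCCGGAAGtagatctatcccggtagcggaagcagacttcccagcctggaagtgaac
Mrpl45, chr11:97315466-97315715, plus strand: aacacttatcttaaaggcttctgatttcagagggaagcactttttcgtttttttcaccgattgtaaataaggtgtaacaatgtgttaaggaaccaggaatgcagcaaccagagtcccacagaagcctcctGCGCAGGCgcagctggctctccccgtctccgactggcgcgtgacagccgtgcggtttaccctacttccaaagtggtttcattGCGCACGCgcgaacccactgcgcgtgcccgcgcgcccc
Mrps18c, chr5:100798509-100798758, plus strand: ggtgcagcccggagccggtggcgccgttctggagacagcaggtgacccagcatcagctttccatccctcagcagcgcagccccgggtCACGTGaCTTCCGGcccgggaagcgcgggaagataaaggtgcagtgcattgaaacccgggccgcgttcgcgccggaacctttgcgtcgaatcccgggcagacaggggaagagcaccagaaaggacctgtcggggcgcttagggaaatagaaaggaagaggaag
Mrps15, chr4:126046678-126046927, plus strand: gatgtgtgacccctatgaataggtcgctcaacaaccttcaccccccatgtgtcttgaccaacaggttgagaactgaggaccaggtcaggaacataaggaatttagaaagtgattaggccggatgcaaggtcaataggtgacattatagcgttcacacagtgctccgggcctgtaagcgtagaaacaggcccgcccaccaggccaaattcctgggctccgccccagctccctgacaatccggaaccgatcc
Mrps26, chr2:130563507-130563756, plus strand: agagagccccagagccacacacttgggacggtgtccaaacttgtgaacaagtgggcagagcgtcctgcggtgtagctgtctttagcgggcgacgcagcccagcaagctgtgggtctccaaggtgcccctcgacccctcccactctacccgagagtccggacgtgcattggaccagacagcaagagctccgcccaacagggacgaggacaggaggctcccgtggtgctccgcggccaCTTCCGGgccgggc

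RefSeq promoters were found for 65 of the 74 genes, and 4 motifs of factors known to act on nuclear genes for mitochondrial proteins, or on growth genes, were searched on both strands. The ETS motif CCGGAAG, bound by the factor GABP among others, lay in 15 of the 65 promoters (23.1%), against 7.05% of all 27025 promoters in the table. The NRF1 motif GCGCANGC lay in 17 (26.2%), against 8.42% of all promoters. The YY1 motif AAGATGG was found in 6 (9.23%, against 4.53%) and the E-box CACGTG, bound by MYC and other factors, in 5 (7.69%, against 6.05%). The NF-kappaB motif GGGANTTTC, added after the values were seen, was in 0 of the 65 and in 0.977% of all promoters. Among the sequences shown, Mrpl52 holds the ETS and YY1 motifs, Mrpl27 the ETS motif, Mrpl45 the NRF1 motif at 2 places, Mrps18c the E-box and the ETS motif, Mrps26 the ETS motif and Mrps15 none. Of the other genes that fell, Mrpl18 holds the ETS motif and Mrpl36 the E-box and YY1 motifs, so genes of both directions carry ETS matches. None of the motifs searched contains another. The 27025 promoters were not matched to the 65 in base composition or kind of gene, and the differences in share were not tested. A match describes the letters in this window and was not set against binding data.

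Values are intensities as deposited, in arbitrary units, and changes are differences of log2(intensity + 13) with their standard errors. A gene with several probe sets is represented by the one with the highest mean over the 9 arrays. "Rose", "fell" and "called" mean an adjusted p of at most 0.05 in a limma fit across all 22626 probe sets with Benjamini-Hochberg adjustment. Control probe sets for Bacillus genes reached at most 31.2, which serves as the background limit. The representing probe sets of all 74 genes exceeded it on all 9 arrays, as did 106 of the 127 probe sets, while 14 lay at or below it on every array. The median intensity of an array lay between 42.75 and 49.3 in the LPS group, between 51.1 and 54.2 in the CstF-64 group and between 52.3 and 52.7 in the untreated group. Of 12 macrophage markers 11 exceeded the limit on all arrays, with summed intensities of 31712 to 34152 on LPS arrays, 23998 to 28988 on CstF-64 arrays and 22268 to 30740 on untreated arrays. Of 20 markers of lymphocytes, fibroblasts, endothelium and epithelium, 2 did. Of the 20, only Dcn, a fibroblast marker, was called after LPS. It read 34.4, 46.4 and 61.7 on LPS arrays and at most 13.4 on untreated arrays (limma adjusted p = 0.00108). Among the macrophage markers, Csf1r fell after LPS by 0.70 on the log2 scale. Cd14, Itgam, Adgre1 and Fcgr1 rose, by 0.81 to 2.01, and the rest were not called. Arrays of a group correlated at r = 0.965 to 0.989 over all probe sets, with LPS array 1 (0.965 and 0.967) and CstF-64 array 1 (0.975 and 0.976) the lowest. CstF-64 arrays correlated about as closely with untreated arrays, at r = 0.976 to 0.982. CstF-64 array 1 lay nearer to untreated arrays 1 and 2 (0.981 and 0.98) than to its own group. Cstf2, the gene that encodes CstF-64, was not called higher on the arrays that carry its label, which are named below by that label alone. Its brighter probe set read 317.9, 361.5 and 394.5 on CstF-64 arrays and 397.8, 363.1 and 372.2 on untreated arrays (−0.08 ± 0.13, limma adjusted p = 0.9999). Its dimmer probe set read 97.1, 85.4 and 80.4 on CstF-64 arrays and 114.7, 100.2 and 134.1 on untreated arrays, lower without overlap but not called (−0.36 ± 0.16, adjusted p = 0.763). Whether the probe sets lie within the introduced sequence is not known.

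After LPS, most mitochondrial ribosomal protein genes moved little, and a few rose clearly. Mrpl52, Mrpl27, Mrpl45 and Mrps18c rose, and Mrps15, Mrpl18, Mrpl36 and Mrps26 fell, so that 8 of 74 genes (10.8%) were called, where 17.1% of all genes were when each was counted by 1 probe set. Counted as probe sets, 7 of 127 were higher, where 5.93% of all probe sets were, and 12 were lower, where 10.7% of all were. Together these 19 are 15% of the members, against 16.6% of all probe sets called in either direction. The median change of the 127 probe sets was −0.15 on the log2 scale, against −0.04 over all probe sets, and 95 of them (74.8%) lay below 0, against 55.7% of all. All probe sets include many dim ones, whose changes are small. Over the probe sets whose mean exceeded the background limit in some group, the median was −0.10, closer to that of the members. The LPS and untreated arrays did not overlap for 41 members (32.3%), 10 of them higher and 31 lower, against 33.4% of all probe sets. By probe set, the share of members called is thus near that of the whole array, and by gene it lies below it. These differences in share were not tested, and what follows describes single genes. In RNA from whole cultures, fewer cells of a kind and less RNA per cell cannot be told apart.

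**Figure D1:**
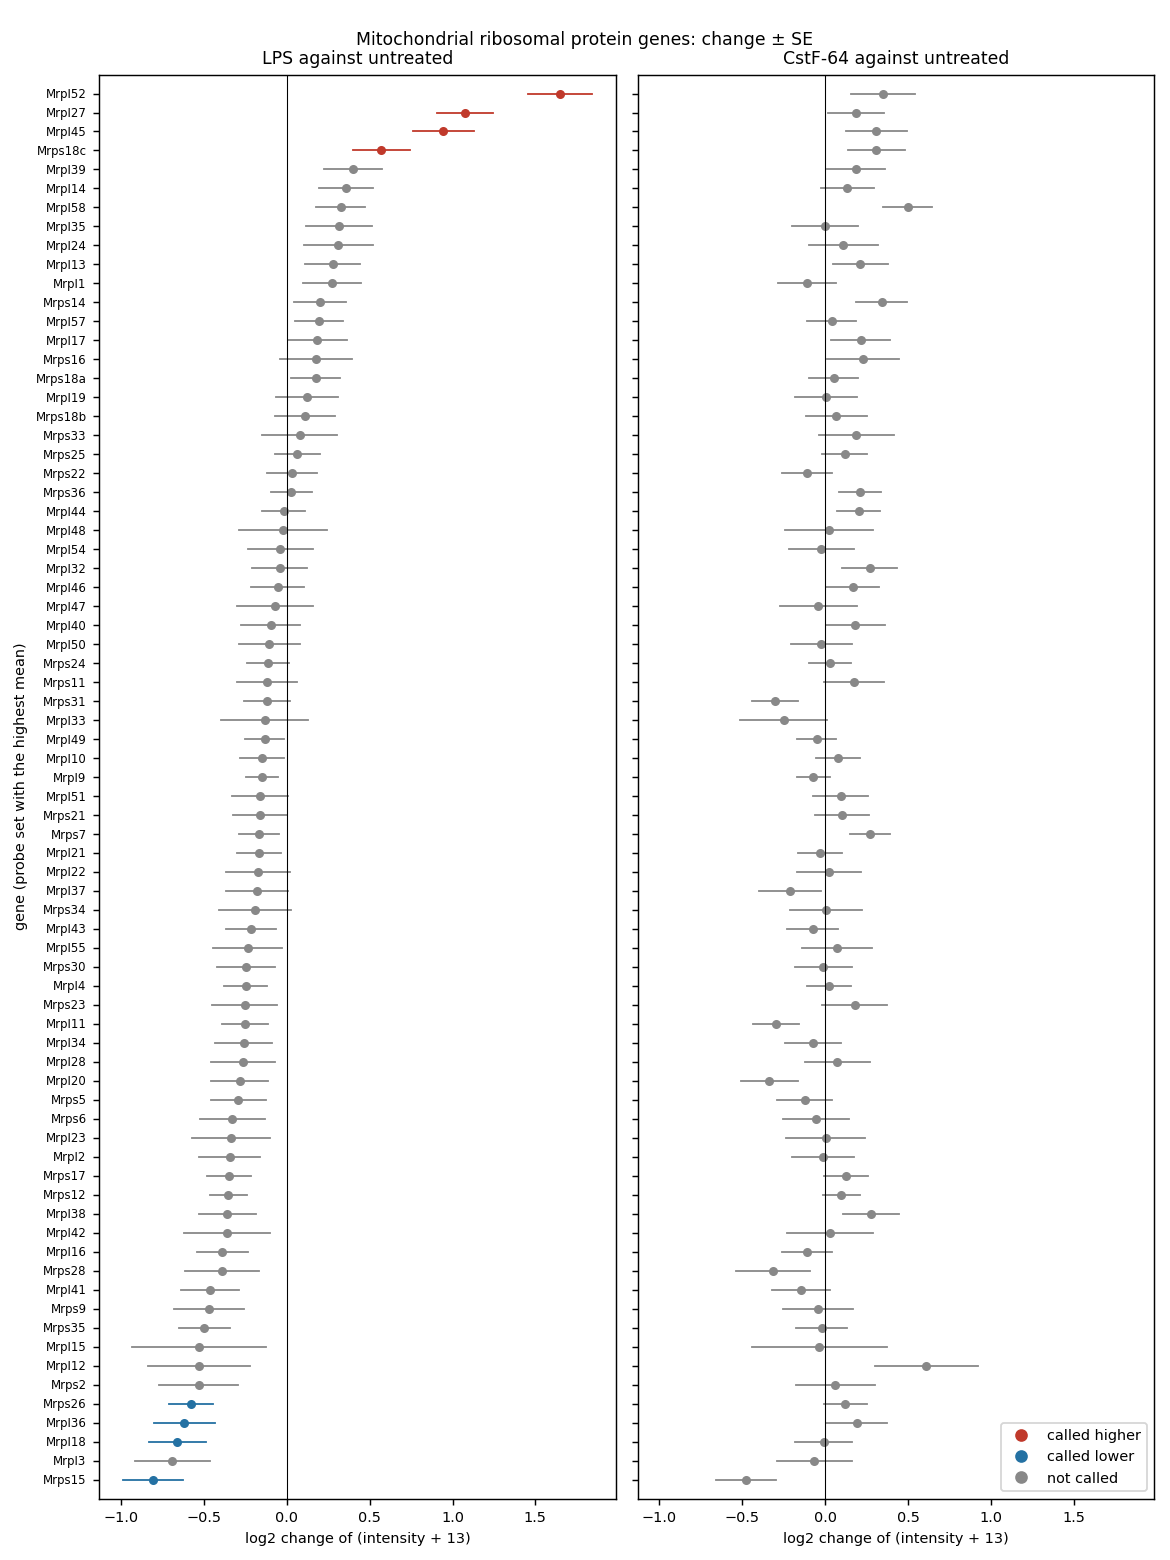
Change of the 74 mitochondrial ribosomal protein genes, as the difference of log2(intensity + 13) from untreated arrays with its standard error, for LPS on the left and CstF-64 on the right, each from 3 arrays a group. Red points were called higher, blue points lower and grey points were not called. Genes are ordered by their LPS change, with Mrpl52 at 1.65 on top and Mrps15 at −0.81 at the bottom, and none is coloured on the CstF-64 side.

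Mrpl52, a large-subunit protein found only in mitochondria, rose most of the 74 genes. It read 721.5, 1137 and 1297 on LPS arrays, 448.3, 402.0 and 372.9 on CstF-64 arrays, and 336.7, 293.5 and 321.3 on untreated arrays. Every LPS array exceeded every array of the other groups. The log2 change after LPS was 1.65 ± 0.19 (SE, limma adjusted p = 0.000394). All 4 of its probe sets rose, the other two bright ones by 1.60 ± 0.25 and 1.53 ± 0.23. The dim one, which lay at or below the background limit on all untreated arrays, was at least 1.07-fold higher.

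Mrpl27, the counterpart of a bacterial large-subunit protein that lies beside the peptidyl transferase centre, read 572.6, 817.0 and 971.1 on LPS arrays. It read 420.9, 410.0 and 396.6 on CstF-64 arrays and 368.0, 360.9 and 345.9 on untreated arrays. The 3 groups do not overlap. Its log2 change after LPS was 1.08 ± 0.17 (adjusted p = 0.00217).

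Mrpl45 belongs to the large subunit near the exit of the nascent chain and helps to hold the ribosome at the inner membrane. It read 1186, 761.8 and 862.2 on LPS arrays, 520.3, 601.2 and 644.9 on CstF-64 arrays, and 575.0, 409.8 and 445.3 on untreated arrays. The LPS arrays lie above all others, and the CstF-64 and untreated arrays overlap. The log2 change after LPS was 0.95 ± 0.18 (adjusted p = 0.00683).

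Mrps18c is one of a trio of mammalian genes related to bacterial ribosomal protein S18. It read 200.5, 187.8 and 241.9 on LPS arrays, 149.2, 207.6 and 163.5 on CstF-64 arrays, and 166.7, 123.8 and 122.7 on untreated arrays. LPS and untreated arrays do not overlap, and 1 CstF-64 array lies within the LPS range. The log2 change of 0.57 ± 0.17 passed the threshold narrowly (adjusted p = 0.0482). The call was lost without any 1 of LPS arrays 1, 2 and 3, CstF-64 array 3 and untreated arrays 2 and 3, while over all alternatives the change ranged between 0.44 and 0.73. The other members of the trio were not called: Mrps18a differed by 0.17 ± 0.15 (adjusted p = 0.507) and Mrps18b by 0.11 ± 0.18 (adjusted p = 0.771).

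Of the genes that fell after LPS, Mrps15, whose bacterial counterpart binds the small-subunit RNA early in assembly, changed most. It read 178.2, 280.9 and 259.7 on LPS arrays, 319.3, 268.2 and 312.1 on CstF-64 arrays, and 473.6, 352.5 and 449.8 on untreated arrays. Its untreated arrays lie above all others. The log2 change after LPS was −0.81 ± 0.18 (adjusted p = 0.0133), while its second probe set differed by −0.07 ± 0.15 (adjusted p = 0.825).

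Mrps26, a small-subunit protein found only in mitochondria, read 284.7, 329.6 and 310.7 on LPS arrays, 563.2, 464.9 and 498.3 on CstF-64 arrays, and 520.8, 398.0 and 485.3 on untreated arrays. The LPS arrays lie below all others. The log2 change after LPS was −0.58 ± 0.13 (adjusted p = 0.0150).

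Mrpl18 is related to the bacterial protein that binds 5S ribosomal RNA, and Mrpl36 is among the smallest proteins of the large subunit. Mrpl18 read 136.8, 196.8 and 198.6 on LPS arrays, 306.0, 244.6 and 300.1 on CstF-64 arrays, and 309.0, 307.2 and 241.9 on untreated arrays, a log2 change after LPS of −0.66 ± 0.17 (adjusted p = 0.0264). Mrpl36 read 112.8, 192.8 and 196.1 on LPS arrays, 309.9, 285.2 and 288.8 on CstF-64 arrays, and 266.1, 257.5 and 245.9 on untreated arrays, a log2 change of −0.62 ± 0.18 (adjusted p = 0.0473). For both genes the LPS arrays lie below all others, and LPS array 1 is the lowest.

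The rises and the falls differed in how far they held under other treatments of the values. The rises of Mrpl52, Mrpl27 and Mrpl45 were called under every alternative run for them, 20 for Mrpl52, whose representing probe set drops out when only plain probe sets are used, and 21 for the others. The 4 falls were not: with each array centred on its median, 0 genes and 1 probe set were lower, and the member probe sets split into 8 higher and 1 lower, against 7 and 12 as deposited and 7 and 3 after quantile normalization. With median centring the members' median change was 0.0048, against −0.15 as deposited and −0.06 after quantile normalization. Median centring moved the median of all probe sets to 0.12, against −0.04 as deposited, and turned the split over the whole array to 2228 higher and 1455 lower, against 1341 and 2414 as deposited. The count of lower members was 1 without untreated array 1, 5 without CstF-64 array 3, untreated array 2 or untreated array 3, and 6 without LPS array 1, LPS array 3 or CstF-64 array 2. Without untreated array 1 none of the 4 falls was called. The falls of Mrps15 and Mrps26 were also lost without untreated array 3, that of Mrpl18 without LPS array 1 or untreated array 2, and that of Mrpl36 without any 1 of the CstF-64 or untreated arrays. The log2 changes of all 4 lay below 0 under every alternative.

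**Figure D2:**
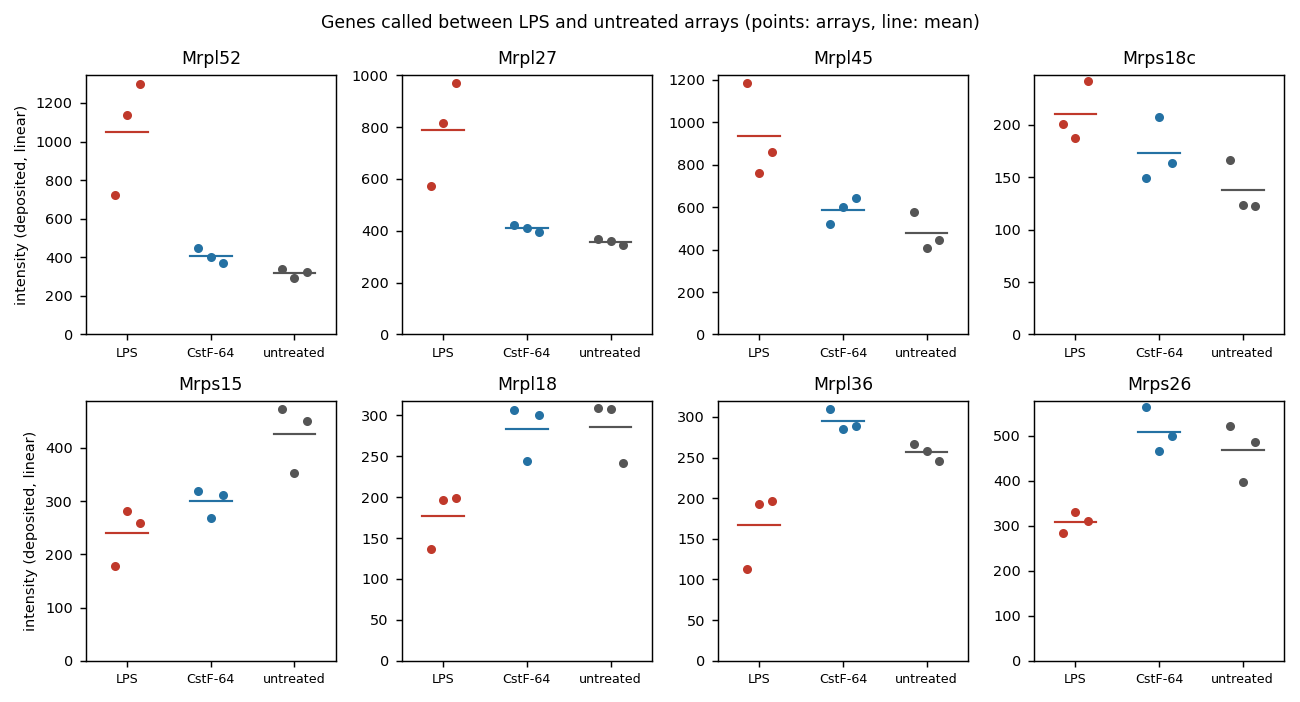
Deposited intensity, on a linear axis that starts at 0, of the 8 genes called between LPS and untreated arrays, with the LPS, CstF-64 and untreated arrays in columns, 1 point per array and a line at the mean of 3. In the upper row the LPS points of Mrpl52, Mrpl27, Mrpl45 and Mrps18c lie above the untreated points, and in the lower row those of Mrps15, Mrpl18, Mrpl36 and Mrps26 lie below them.

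The remaining 66 genes were not called. Their log2 changes after LPS ran between −0.69 and 0.40 with a median of −0.16, and the median standard error of a change was 0.17. Mrpl3, whose bacterial counterpart lines the peptidyl transferase centre, had the lowest of these changes. It read 165.3, 240.0 and 252.1 on LPS arrays and 456.9, 361.9 and 271.9 on untreated arrays, which do not overlap (−0.69 ± 0.23, adjusted p = 0.0669). Mrpl14, a large-subunit protein of bacterial descent, read 333.9, 335.8 and 404.4 on LPS arrays and 246.6, 274.7 and 308.5 on untreated arrays (0.36 ± 0.16, adjusted p = 0.180).

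The called genes belonged to both subunits and to both kinds of ancestry. Of 49 large-subunit genes 3 rose and 2 fell, with a median log2 change of −0.15, and of 24 small-subunit genes 1 rose and 2 fell, with a median of −0.18. Among 43 genes with bacterial counterparts 2 rose and 3 fell (median −0.17), and among 28 found only in mitochondria 2 rose and 1 fell (median −0.11). With median centring these medians turned to 0.01, −0.02, −0.02 and 0.04. Mrps36 (0.03), a member by its symbol, was counted in neither subunit nor ancestry class. Mrps18a and Mrps18b were kept apart from the 2 ancestry classes as a bacterial S18 family. Differences between the classes were not tested.

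The level of the genes as a whole varied between arrays of the same group. The median deviation of the 74 genes from their 9-array means was −0.28, −0.04 and 0.06 on LPS arrays 1, 2 and 3. It was 0.12, 0.06 and 0.04 on CstF-64 arrays and 0.17, −0.05 and −0.03 on untreated arrays. LPS array 1 thus lay lowest and untreated array 1 highest, while the medians of all probe sets on the same 2 arrays were 0.02 and 0.01. LPS array 1 held the lowest value of its group for 80 of the 127 members, and untreated array 1 the highest for 93. Without LPS array 1 the median change of the members was −0.08, and without untreated array 1 it was −0.10. Over the genes, the median coefficient of variation within a group was 16.5% for LPS, 10.3% for CstF-64 and 11.8% for untreated arrays.

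**Figure D3:**
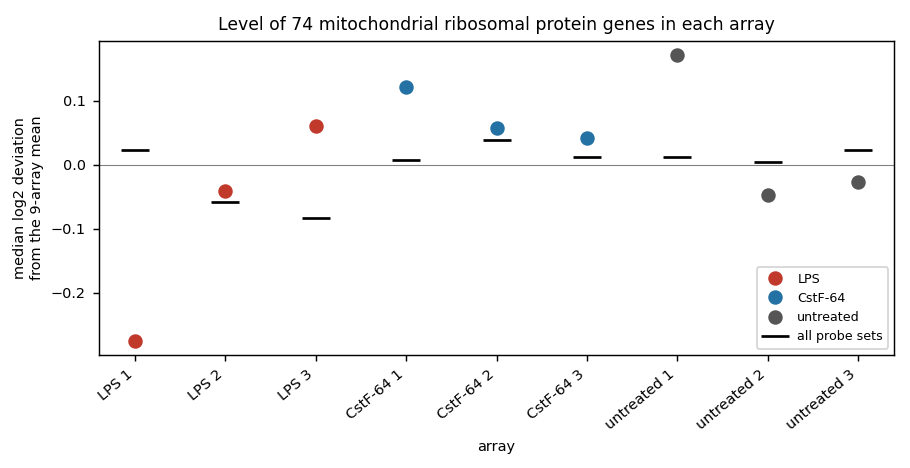
Median log2 deviation of the 74 genes from their means over the 9 arrays, 1 point per array, with a black bar for the median over all probe sets of that array. LPS array 1 lies lowest at −0.28 and untreated array 1 highest at 0.17, and the bars stay between −0.08 and 0.04.

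Several genes are read by probe sets that did not move together after LPS. Of the 28 genes with at least 2 probe sets above background on some array, 22 had all of their probe sets on the same side of 0. The limma diffSplice F test called 3 member genes for unequal change, Mrps14, Mrpl35 and Mrpl1, of 33 with several probe sets, where 5.59% of the 4956 genes tested were called. In 9 of the 33 genes (27.3%) at least 1 probe set was called and another was not, and 21.8% of all genes with several probe sets differed in call among them. Counting any called probe set, 4 genes (5.41%) were higher, where 7.6% of all genes were, and 12 (16.2%) were lower, where 13.1% of all were.

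For Mrps14, a small-subunit protein of bacterial descent, the bright probe set read 772.7, 838.8 and 1041 on LPS arrays and 931.6, 736.9 and 643.9 on untreated arrays. These overlap, and its log2 change was 0.20 ± 0.16 (adjusted p = 0.464). Its dimmer probe set read 36.5, 52.5 and 49.9 on LPS arrays and 78.9, 86.1 and 92.7 on untreated arrays, with no overlap and a log2 change of −0.75 ± 0.16 (adjusted p = 0.0112). The adjusted p of the unequal change was 0.0160.

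Mrpl1, related to the bacterial protein at the L1 stalk through which tRNAs leave the ribosome, had an adjusted p of 0.0453 for unequal change. Its brightest probe set read 156.3, 130.7 and 134.9 on LPS arrays and 142.4, 88.5 and 115.8 on untreated arrays (0.27 ± 0.18, adjusted p = 0.352). The second read 44.8, 40.5 and 42.5 on LPS arrays and 62.8, 75.1 and 70.4 on untreated arrays (−0.57 ± 0.16, adjusted p = 0.0375). The first pair of groups overlaps and the second does not. Mrpl35 (adjusted p = 0.0451) rests on a probe set at or below background on all 9 arrays, set beside a bright one with a log2 change of 0.32 ± 0.20. Mrps15, with probe sets at −0.81 and −0.07, did not pass (adjusted p = 0.0999). In Mrpl3, Mrpl49 and Mrpl50 a dimmer probe set fell, by 0.66, 0.57 and 0.64 on the log2 scale, while the brightest was not called. The brightest of Mrpl3 nevertheless changed by −0.69, about as much as the dimmer probe set. Those of Mrpl49 and Mrpl50 changed by −0.134 and −0.105. None of these genes passed the diffSplice test for unequal change (adjusted p = 0.260, 0.219 and 0.256). The number of genes with unequal change was 0 without LPS array 3, untreated array 2 or untreated array 3, and 1 without LPS array 2 or any CstF-64 array.

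**Figure D4:**
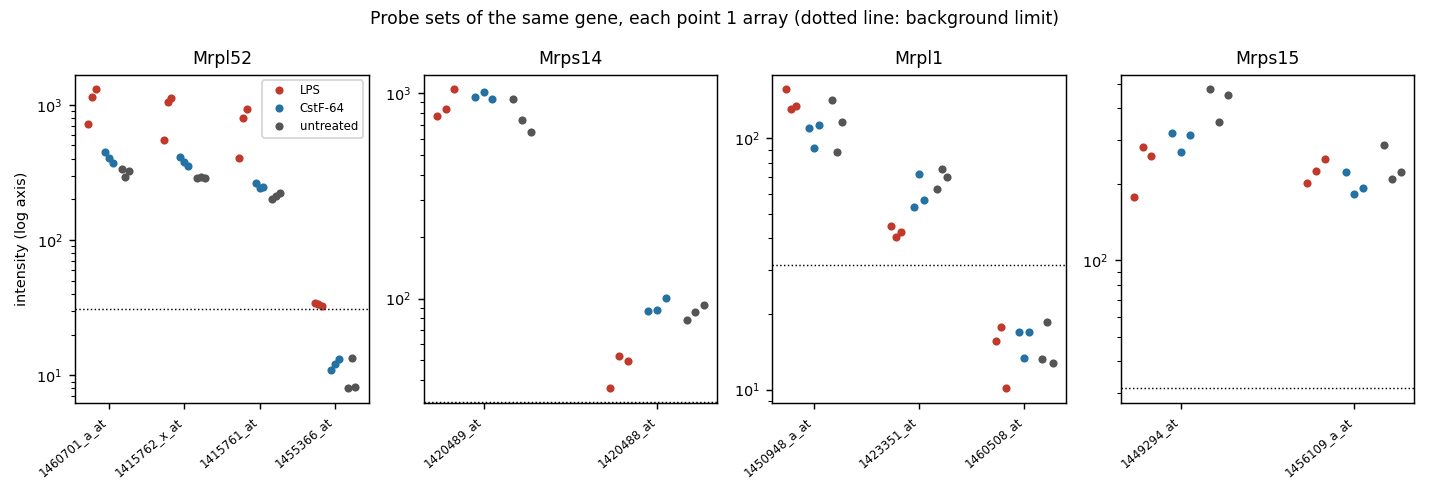
Intensity on a log axis of each probe set of Mrpl52, Mrps14, Mrpl1 and Mrps15, with 1 point per array, LPS left of CstF-64 and untreated, and a dotted line at the background limit of 31.2. All 4 probe sets of Mrpl52 are higher on LPS arrays, whereas in Mrps14, Mrpl1 and Mrps15 one probe set is lower on LPS arrays and the bright or second one overlaps the untreated arrays.

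On CstF-64 arrays no mitochondrial ribosomal protein gene was called against untreated arrays. Of the 127 probe sets, 0 passed the adjusted threshold in limma, where 0.248% of all probe sets did, and 4 (3.15%) had an unadjusted p under 0.05, where 6.45% of all did. The median log2 change was 0.02 (0.03 over 1 probe set a gene), and the 74 genes lay between −0.48 and 0.61. CstF-64 and untreated arrays did not overlap for 22 members (17.3%), 15 higher and 7 lower, where 12.9% of all probe sets did not overlap. The diffSplice test called 0 members for unequal change, where 0.0404% of genes were called, and its smallest unadjusted p among members was 0.0300, for Mrpl21.

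Mrpl12, a protein of the stalk that recruits translation factors, had the highest CstF-64 value relative to untreated cells. It read 477.4, 460.5 and 426.5 on CstF-64 arrays, 100.3, 292.5 and 263.7 on LPS arrays, and 314.0, 293.4 and 273.9 on untreated arrays. The CstF-64 arrays lie above all others, and the LPS arrays are spread widely, with array 1 far below the rest. The log2 difference of CstF-64 from untreated arrays was 0.61 ± 0.31 (adjusted p = 0.844). The fit takes its spread from all arrays, so this standard error also carries the LPS arrays, which lie outside the comparison. The standard deviation of the intensities was 103.7 for LPS, 25.92 for CstF-64 and 20.05 for untreated arrays. With only the 2 groups compared, Mrpl12 was still not called. With LPS array 1 and CstF-64 array 1 left out together, an alternative chosen after the values were seen, Mrpl12 was called (adjusted p = 0.0482).

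Mrpl58, a large-subunit protein that can release peptides from stalled ribosomes, had the smallest adjusted p of this comparison, 0.456. It read 250.5, 284.9 and 277.7 on CstF-64 arrays and 223.5, 157.8 and 187.4 on untreated arrays, which do not overlap (0.50 ± 0.15). The next largest differences upward among genes without overlap were 0.35 for Mrpl52, 0.34 for Mrps14 and 0.27 for Mrps7, none of them called. Downward they were −0.48 for Mrps15, −0.34 for Mrpl20, −0.32 for Mrps28, and −0.30 for both Mrps31 and Mrpl11, with adjusted p between 0.661 and 0.945. Mrps15 read 319.3, 268.2 and 312.1 on CstF-64 arrays, all below the untreated range of 352.5 to 473.6. The median standard error of a difference was 0.17, and the number of arrays, 3 a group, limits what this comparison can detect.

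Setting CstF-64 arrays directly against LPS arrays, 14 probe sets were higher, where 9.43% of all were, and 6 were lower, where 5.79% of all were. The 20 together are 15.7% of the members, near the 15.2% of all probe sets called. The median log2 change was 0.16, against 0.05 over all probe sets and 0.12 with dim ones left out. Of the genes, 8 were higher and 3 lower, together 14.9%, with 15.2% of all probe sets as the only share to set beside it. The share over all genes, counted by 1 probe set each, was not computed for this comparison. The largest differences upward were Mrpl12 at 1.14 ± 0.31 (adjusted p = 0.0343), Mrpl36 at 0.81 ± 0.18 (0.0161), Mrps26 at 0.70 ± 0.13 (adjusted p = 0.00634), Mrpl18 at 0.65 ± 0.17 (0.0302) and Mrpl38, a large-subunit protein, at 0.63 ± 0.17 (0.0326). Downward they were Mrpl52 at −1.30 ± 0.19 (adjusted p = 0.00175), Mrpl27 at −0.89 ± 0.17 (0.00639) and Mrpl45 at −0.64 ± 0.18 (0.0440). Those of Mrpl52, Mrpl27 and Mrps26 were called under every alternative run for them (20, 21 and 21), and the other 5 were lost under 3 (Mrpl36) to 12 (Mrpl45). The difference of Mrpl12 was 0.65 with LPS array 1 and CstF-64 array 1 left out. With median centring 2 probe sets were higher and 6 lower, and after quantile normalization 4 and 5. The count of 14 was 2 without CstF-64 array 3 and between 4 and 8 without any 1 of the other arrays, except untreated array 1, where it was 12.

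Some other genes of mitochondrial translation, from lists beyond the Mrpl and Mrps names, fell after LPS. The lists are read against all 12393 genes counted by 1 probe set each, of which 17.1% were called and 10.4% were lower. Among 4 measured mitoribosomal proteins with other names, 1 (25%) was called: Ptcd3, a small-subunit protein, fell. It read 85.9, 131.8 and 96.3 on LPS arrays and 347.8, 291.9 and 230.1 on untreated arrays, with no overlap (−1.36 ± 0.21, adjusted p = 0.00205). Dap3, a small-subunit GTP-binding protein, was not called (0.42 ± 0.18, adjusted p = 0.143).

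Of 9 translation factors, 0 rose and 2 (22.2%) fell: Pdf at −0.72 and Mtfmt at −0.61, enzymes that remove the formyl group from new proteins and add it to the initiator tRNA. Of 16 genes of ribosome assembly and rRNA modification, 0 rose and 4 (25%) fell. They were Fastkd2 at −1.41, Rpusd4 at −1.10, Noa1, a GTPase, at −0.90 and Eral1 at −0.59, with adjusted p between 0.00617 and 0.0256. Fastkd2 and Rpusd4 act on the large-subunit RNA, and Eral1 binds the small-subunit RNA. Of 13 aminoacyl-tRNA synthetases and partners, 0 rose and 2 (15.4%) fell, Qrsl1 at −0.84 and Iars2 at −0.55. With lists this short, 1 gene more or less moves a share by several percentage points, and the share of synthetases called lies below that of all genes. Median log2 changes were −0.30, −0.24, −0.22 and −0.41 in these 4 lists in the order given. The median over all probe sets was −0.04, or −0.10 with dim ones left out. With median centring the list medians were −0.15, −0.09, −0.06 and −0.26. The calls of Ptcd3, Fastkd2, Noa1 and Qrsl1 held under all 19 alternatives run for these lists, while those of Pdf, Mtfmt, Rpusd4, Eral1 and Iars2 were lost under 7 to 12 of them.

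Of 15 genes that transcribe mitochondrial DNA or handle its RNA, 1 rose and 4 fell (33.3% called). Slirp, which binds mitochondrial mRNAs, rose by 0.73 ± 0.14 (adjusted p = 0.00686), while its partner Lrpprc fell by 0.98 ± 0.18 on the log2 scale (adjusted p = 0.00464). Tfam, which packages mitochondrial DNA, fell by 0.79, Tfb2m, a transcription factor of the mitochondrial polymerase, by 1.14, and Supv3l1, an RNA helicase, by 0.97. Of 21 import genes 0 rose and 3 (14.3%) fell, a share called below the 17.1% of all genes. They were Timm8a1 at −0.73, Timm50 at −0.72 and Tomm40 at −0.50, which lie in the intermembrane space, the inner membrane and the outer membrane. The calls of Slirp, Lrpprc, Tfam, Tfb2m, Supv3l1 and Timm8a1 held under all 19 alternatives, and those of Timm50 and Tomm40 were lost under 7 and 13.

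Of 10 nuclear regulators, 2 rose and 2 fell (40% called). Gabpa, the DNA-binding subunit of GABP, read 84.2, 115.1 and 104.1 on LPS arrays and 206.7, 220.6 and 220.2 on untreated arrays (−1.01 ± 0.14, adjusted p = 0.00129). Gabpb1, its partner subunit, read 93.8, 137.0 and 120.6 on LPS arrays and 62.2, 78.5 and 50.7 on untreated arrays (0.76 ± 0.19, adjusted p = 0.0235). Neither pair of groups overlaps, and the 2 subunits moved in opposite directions. Myc read 471.1, 344.3 and 352.0 on LPS arrays against at most 27.6 on untreated arrays, at least 12.3-fold higher (adjusted p = 2.13e-05), and Pprc1, a coactivator, fell by 0.74 on the log2 scale. The calls of Gabpa and Myc held under all 19 alternatives, and those of Gabpb1 and Pprc1 were lost under 5 and 8. On CstF-64 arrays 0 genes of any of the 7 lists were called.

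Cytosolic ribosomal proteins and respiratory chain subunits, set beside them, held smaller shares of calls after LPS in the values as deposited. Of 101 probe sets of cytosolic ribosomal proteins 1 was higher and 1 lower (1.98% called, median 0.14), and of 148 of respiratory chain subunits 4 were higher and 4 lower (5.41%, median −0.05), against 15% and −0.15 for the mitochondrial ribosomal proteins. Their medians turned with the scaling: that of the cytosolic ribosomal proteins was −0.10 after quantile normalization and 0.30 with median centring, and that of the respiratory chain −0.17 and 0.11. With median centring 6 cytosolic ribosomal probe sets were higher and 0 lower, and 9 respiratory chain probe sets were higher and 1 lower, against 8 and 1 for the mitochondrial ribosomal proteins. In the CstF-64 comparison 0 were called in each. The differences between these lists were not tested.

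Both of the genes that rose most have neighbours that were called as well. The nearest protein-coding gene on each side was looked up, after the values were seen, for the 16 member genes with a called probe set. Of 32 neighbours 22 were measured, and 3 were higher and 1 lower after LPS (18.2%). Of all genes counted by 1 probe set each, 17.1% were called. All 4 flank Mrpl52 or Mrpl27.

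Slc7a7, an amino acid transporter beside Mrpl52, read 142.1, 148.8 and 175.5 on LPS arrays and 61.3, 75.2 and 75.2 on untreated arrays (1.01 ± 0.15, adjusted p = 0.00139). Mmp14, a membrane-bound matrix metalloproteinase on its other side, read 64.7, 182.8 and 136.7 on LPS arrays and stayed at or below background on untreated arrays, at least 3.76-fold higher (adjusted p = 0.00189). Both rose with Mrpl52, with no overlap between groups. Beside Mrpl27, Xylt2, a xylosyltransferase of proteoglycan synthesis, read 114.4, 162.1 and 102.9 on LPS arrays and 16.9, 35.5 and 32.2 on untreated arrays (1.77 ± 0.24, adjusted p = 0.00103). Eme1, a subunit of a DNA repair nuclease, lies on the other side, and its annotated span overlaps that of Mrpl27. It read 25.2, 32.2 and 18.0 on LPS arrays and 108.5, 108.9 and 101.2 on untreated arrays (−1.66 ± 0.19, adjusted p = 0.000330). The neighbours of Mrpl27 thus moved in opposite directions, and all 4 calls held under the 19 alternatives.

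**Figure D5:**
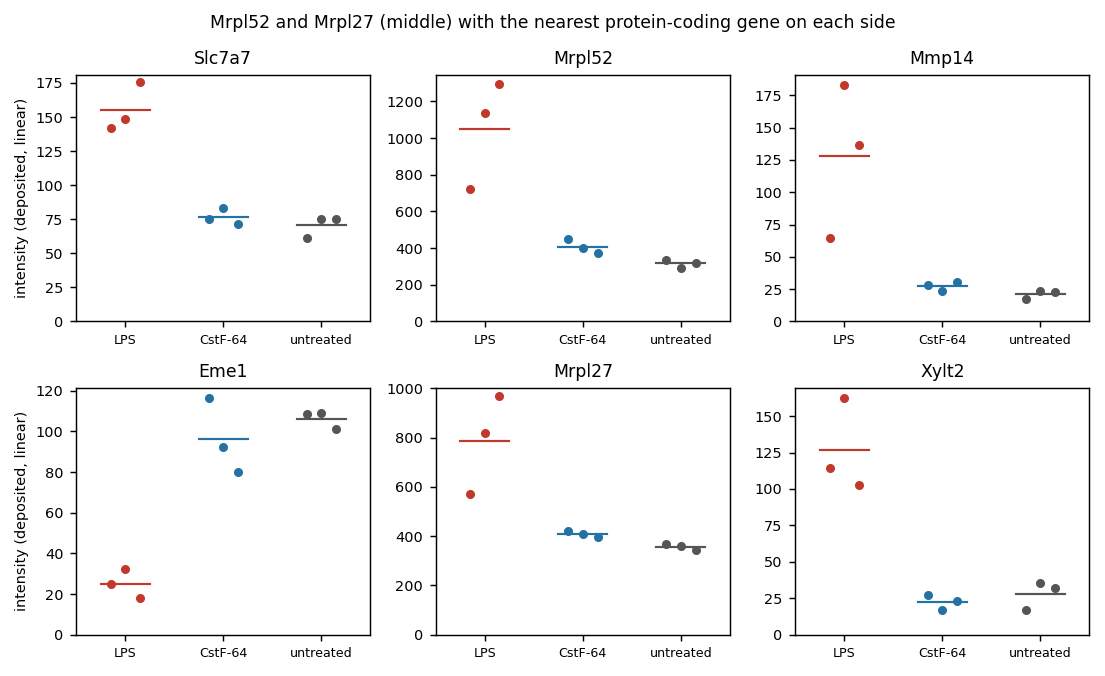
Deposited intensity, on linear axes that start at 0, of Mrpl52 and Mrpl27 in the middle column with the nearest protein-coding gene on each side, 1 point per array and a line at the mean of the 3 LPS, 3 CstF-64 or 3 untreated arrays. Slc7a7, Mmp14 and Xylt2 are higher on LPS arrays, as are Mrpl52 and Mrpl27, and Eme1 is lower.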

How the data were processed

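Each of the 9 arrays has 1 column of intensities, per the deposited table: 22690 probe sets, 64 of them controls. The sources used here do not state what the authors did to make these intensities (software, background correction, scaling). The values show scaling to a common level, since the mean after trimming 2% from each end was 150.05 to 150.06 on every array. Probe sets were named from the platform annotation. Values were kept as deposited, transformed to log2(intensity + 13), and fitted over all 9 arrays with limma 3.58.1 in R 4.3.3 (lmFit, eBayes with an intensity trend, diffSplice), two-sided, with Benjamini-Hochberg adjustment over 22626 probe sets or 4956 genes. For a bound ("at least N-fold"), the brighter group's geometric mean was divided by 31.2. The fit was also run on simulated data with independent noise on each value, which hold no shift shared by an array. Recovery was required there only for changes larger than any seen among the members.

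The members, the lists and the tests were chosen with earlier results of these data known. Genes were named by a rule: called genes up to 20 each way, or up to 5 that did not overlap where fewer were called, up to 5 in each direction between CstF-64 and LPS arrays, up to 6 whose probe sets differ in call, the S18 trio, and up to 4 called genes of each list. Neighbouring genes, Mrpl21 and single cell type markers were named after their values were seen, and Mrps36 for its class alone. Motifs were counted in the 250 bases before each RefSeq start (GRCm38.p6). Alternatives were quantile normalization, median centring, pseudocounts of 1 and 64, leaving out dim probe sets, no intensity trend, only the 2 groups compared, a replicate block, each array left out, plain probe sets only, updated symbols and a threshold of 0.01. Leaving out 2 arrays together was added after the data were seen, and the other lists were recomputed under 19 of these alternatives.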

Additional observations from a re-analysis of the deposited data

How the results depend on the processing

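The 7 higher member probe sets after LPS ranged between 5 and 9 over the 21 alternatives, and the 6 lower for CstF-64 against LPS between 4 and 6. The 12 lower members after LPS became 3 with quantile normalization, 1 with median centring, 6 with only the 2 groups compared, 0 at an adjusted p of 0.01, and 1 to 13 with 1 array left out. The 4 lower genes became 2, 0 and 0 with quantile normalization, median centring and the threshold of 0.01, and 0 to 6 with 1 array left out. The 14 members higher in CstF-64 than LPS arrays became 4 with quantile normalization, 2 with median centring, 5 with only the 2 groups compared, 8 without LPS array 1 and CstF-64 array 1, 9 with plain probe sets only, 2 at 0.01, and 2 to 12 with 1 array left out. Genes with unequal probe sets after LPS, 3, became 1 with quantile normalization, 0 with only the 2 groups compared, 0 at 0.01, and 0 to 3 with 1 array left out. CstF-64 against untreated gave 1 higher probe set and 1 higher gene, Mrpl12, without LPS array 1 and CstF-64 array 1, and 0 under the other alternatives.

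The median member change after LPS was 0.0048 with median centring and between −0.198 and −0.0555 otherwise. Changes after LPS turned sign, uncalled, for Mrpl49 (0.0362 with quantile normalization, 0.0215 with median centring), Mrpl50 (0.0509 and 0.0504) and Mrps18b (−0.0214 without untreated array 3, up to 0.244 with another array left out). Of 35 named results 16 were called, 6 of them under every alternative run for them and 10 not, and 2 of the 19 others were called under 1 or more. The causes were not tested. The deviations of arrays with the same replicate number correlated at r between −0.063 and 0.158, and those with different numbers at −0.236 to 0.196. With 3 arrays a group, these values cannot decide whether the numbers pair the arrays. With the replicate block, 6 members rose and 8 fell after LPS, 0 were called in CstF-64 against untreated, and 7 were higher for CstF-64 against LPS. Precision is limited by 3 arrays a group and by probe sets near background.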
